A study of Panagrellus redivivus with 189 samples.

Results

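A set of 70 transcript features was described in embryos of the nematode *Panagrellus redivivus*. These features had almost no reads in embryos of 1 to 3 cells, passed a minimum level by 6 to 10 cells and stayed at a like level in the gastrula. They were 70 of the 1566 rows analysed, and they were selected on read counts outside 6 very abundant rows. A feature entered the set when it had at most 1 count in total over the 9 libraries of the 1-3 cell embryos, a level of at least 200 CPM (CPM is a count divided by the total counts used and scaled to 1e+06) in the summed 6-10 cell libraries, and a summed gastrula level less than 3-fold above or below that. Of the 1566 rows, 1163 met the first limit and 431 the second, and 140 met both. Of these 140, 63 were too low in the gastrula and 7 too high. The rows of the count table carry no gene name, so each feature is called here by its place in the table (row_59 is the feature in data row 59) and no function is given for any of them.

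In nematodes, as in other animals, the egg is loaded with maternal RNA and the zygotic genome is silent at first. During early cleavage the embryo begins to transcribe its own genes while maternal RNA is broken down, and the founder cells of the lineages start to differ in what they express. RNA that is absent from the zygote and the first blastomeres and accumulates later is the usual mark of zygotic transcription.

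The libraries, 39 in one number series and 150 in another, are described in the labels as collected blastomeres of *P. redivivus* embryos. They were assigned here to 20 embryos by the stage and embryo number in the labels. All 2-cell libraries carry the same embryo number and were split by cell name (AB and P1, 1 and 2) into 2 embryos. That split is not stated in the labels. Each embryo was freed of its shell, manually taken apart and profiled with CEL-Seq2, a 3′-end RNA sequencing method that barcodes each cell. No strain, genotype or treatment is given in the labels, and no other agent is named. By sample number, a lower series (1 to 39) holds 2 embryos of 1 cell, 2 of 2 cells, 1 of 3 cells, 1 of 8 cells (embryo 1), 1 of 12 cells (embryo 1) and 1 of 14 cells, and a higher series (201 to 350) holds 1 embryo of 6 cells, 1 of 7, 4 of 8 (embryos 2 to 5), 1 of 9, 1 of 10, 1 of 12 (embryo 2), 1 of 20, 1 early gastrula and 1 late gastrula. Counts of the libraries from the same embryo were added up, so that replicates are embryos. A sum covers only the blastomeres that were collected, which were fewer than the cells of the embryo in several cases, so fewer cells that hold an RNA and less of it per cell cannot be told apart. The titles of 21 late gastrula libraries and of 1 library of the 20-cell embryo, 3r17, carry a leading digit whose meaning the labels do not give. Library 3r17 had 42908 counts, 30.8% of those of its embryo.

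The 8 lower-series embryos had 39 libraries with a median of 1176 counts outside the 6 abundant rows (14 to 14376), and the 12 higher-series embryos had 150 libraries with a median of 6650 (207 to 44125). The 6 rows accounted for 72.3% of all counts in the median library of the lower series and for 5.09% in that of the higher series. All 1-3 cell libraries are of the lower series and all libraries used for the 6-10 cell and gastrula levels are of the higher series, so in the selection stage and series cannot be told apart. The embryos that the selection did not use are 8-cell embryo 1, 12-cell embryo 1 and the 14-cell embryo of the lower series and 12-cell embryo 2 and the 20-cell embryo of the higher series. They hold 57 libraries, and the 3 from the lower series are the only later embryos that share a series with the 1-3 cell embryos.

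In the libraries used for the selection, given here as a description, 51 of the 70 features had no count and 19 had 1 count among the 55990 counts of the 1-3 cell libraries, where 1 count is 17.9 CPM and a count of 0 allows up to 53.6 CPM (3 counts). Their summed 6-10 cell levels ran from 203 to 7613 CPM with a median of 627, and 26 reached 1000 CPM. Feature row_424, with no early count, was at 6406 CPM in the 6-10 cell sum, at least 119.6-fold above the early limit. Near the limits of the selection, row_1511, row_550 and row_847 were just inside the 6-10 cell minimum with 203, 217 and 224 CPM, and row_1512, row_179 and row_210 were just outside it with 197.9, 193.8 and 192.4 CPM. At the lower gastrula limit row_984, row_460 and row_1511 were kept with gastrula levels 0.336, 0.342 and 0.345 times the 6-10 cell level, and row_456, row_48 and row_1331 were not, with 0.329, 0.324 and 0.313 times. At the upper limit row_1455, row_13 and row_1232 were kept at 2.26, 2.55 and 2.55 times, and row_1181, row_1521 and row_190 were not, at 3.20, 3.26 and 3.88 times. Features row_59, row_155 and row_1394 are the most abundant features kept with 1 early count, and row_1533, row_380 and row_982, at 2110, 2105 and 2080 CPM in the 6-10 cell sum, are the most abundant of 10 left out for having 2.

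**Figure D1:**
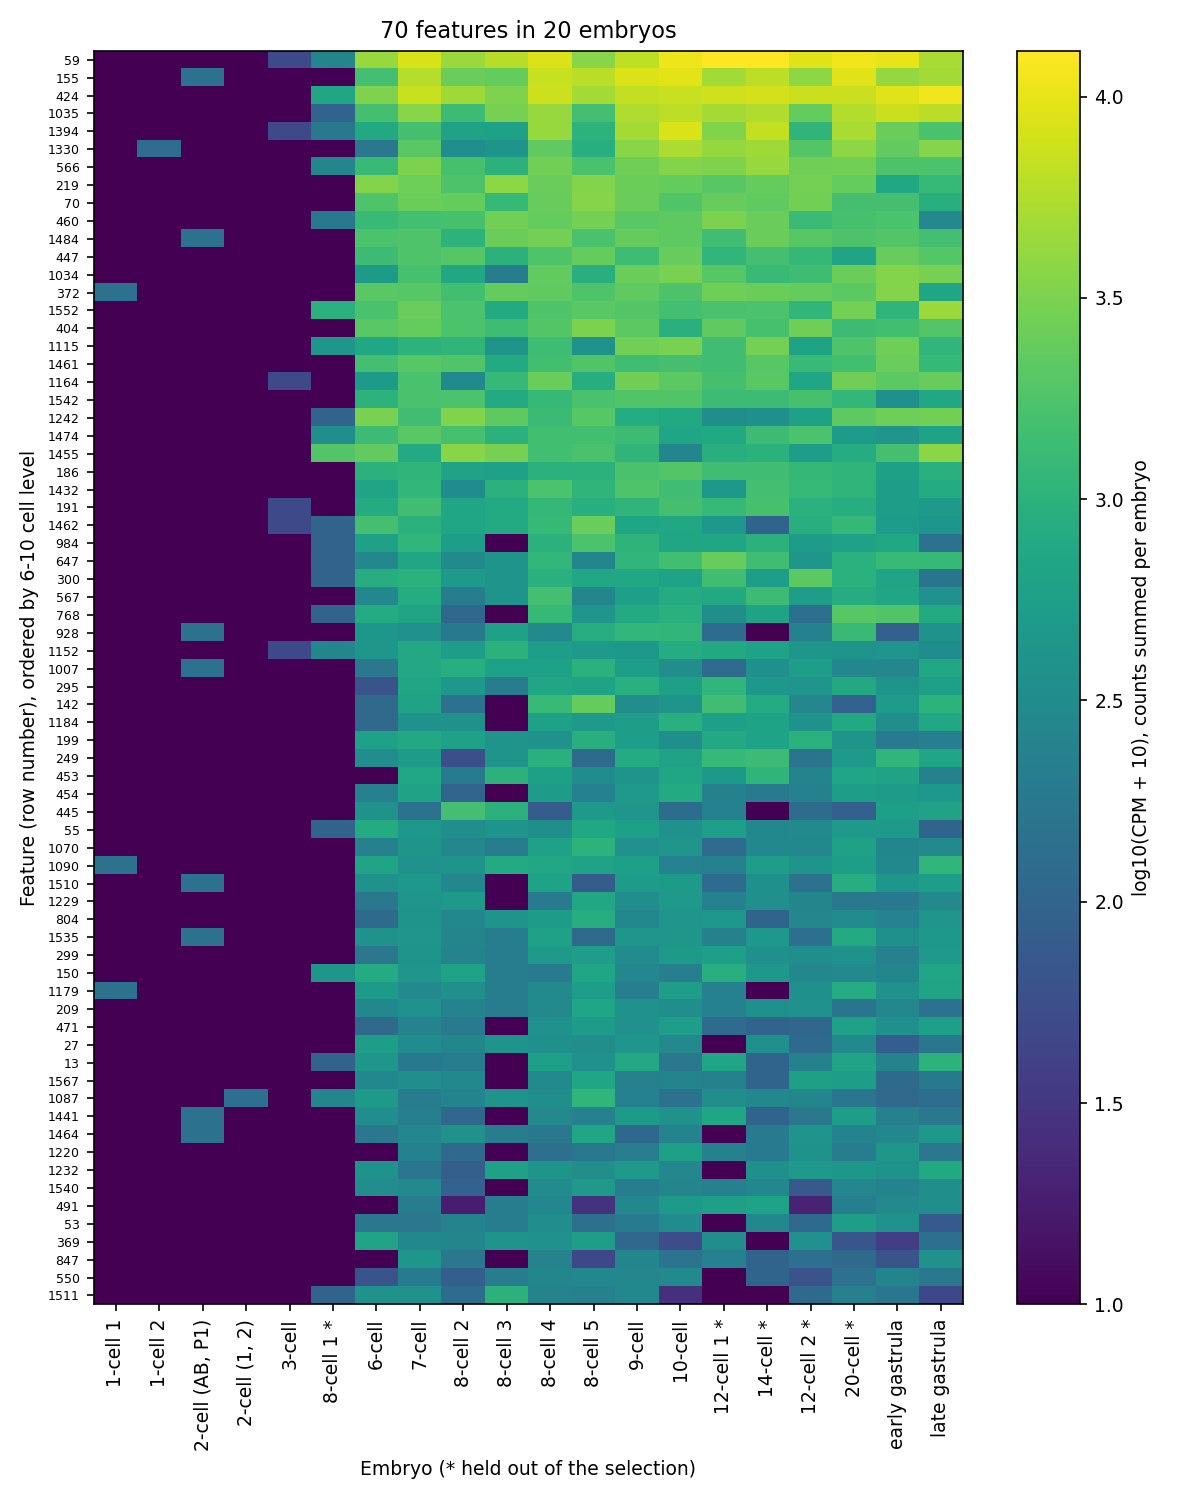
Level of each of the 70 features (rows, by row number) in each of the 20 embryos (columns), as log10 of CPM plus 10 on counts summed per embryo; asterisks mark the 5 embryos the selection did not use. The columns of the 1-3 cell embryos and of 8-cell embryo 1 are mostly dark. Of the other 14 embryos, 8-cell embryo 3 has a count in 56 of the 70 rows, and the rest are bright in nearly all rows.

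In the 4 embryos of 12 to 20 cells that the selection did not use, most of the features were present at the level asked of the 6-10 cell sum. At or above 200 CPM were 59 of 70 features (84.3%) in 12-cell embryo 1, 54 (77.1%) in the 14-cell embryo, 56 (80%) in 12-cell embryo 2 and 61 (87.1%) at the 20-cell stage, where leaving out library 3r17 gave 62. Of all 431 features with 200 CPM in the 6-10 cell sum, the same level was reached by 91.2%, 81.7%, 88.9% and 90.5% in those embryos, a higher share than among the 70 in each of the 4. In the lower-series pair of 12-cell embryo 1 and the 14-cell embryo, 60 of the 70 had a count in both embryos, and 6 and 5 had none, where a count of 0 allows up to 334 and 271 CPM. All 70 had a count in both 12-cell embryo 2 and the 20-cell embryo.

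The mean level over these 4 embryos was a median of 0.960 times the 6-10 cell level over the 70 features, with quartiles of 0.771 and 1.14, beside 0.902 over the 431 features. By embryo the median ratio was 0.871 in 12-cell embryo 1, 0.948 in the 14-cell embryo, 0.672 in 12-cell embryo 2 and 1.04 at the 20-cell stage, beside 0.849, 0.789, 0.871 and 0.974 over the 431 features. The 70 features were thus relatively lower in 12-cell embryo 2 than the 431 and higher in the other embryos. The features ranged from 0.236 times in row_445 to 1.75 times in row_300. Only row_445 and row_550 (0.322 times) fell outside a 3-fold band, on the low side, as did 10 of the 431 features on the low side and 1 on the high side. In single embryos 58 of the 70 were within 3-fold of the 6-10 cell level in 12-cell embryo 1, 58 in the 14-cell embryo, 59 in 12-cell embryo 2 and 66 at the 20-cell stage. For 27 features all 4 embryos lay inside the range of the 8 higher-series embryos of 6 to 10 cells, which include 8-cell embryo 3, where 1 count is 200 CPM. The counts within 3-fold by embryo and inside this range were not made over the 431 features, so nothing particular to the 70 is read from them. With the 6 abundant rows kept in the totals, the lower-series levels were lower 29 features in 12-cell embryo 1 and 30 at the 14-cell stage reached 200 CPM, and the median ratio over the 4 embryos was 0.579.

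**Figure D2:**
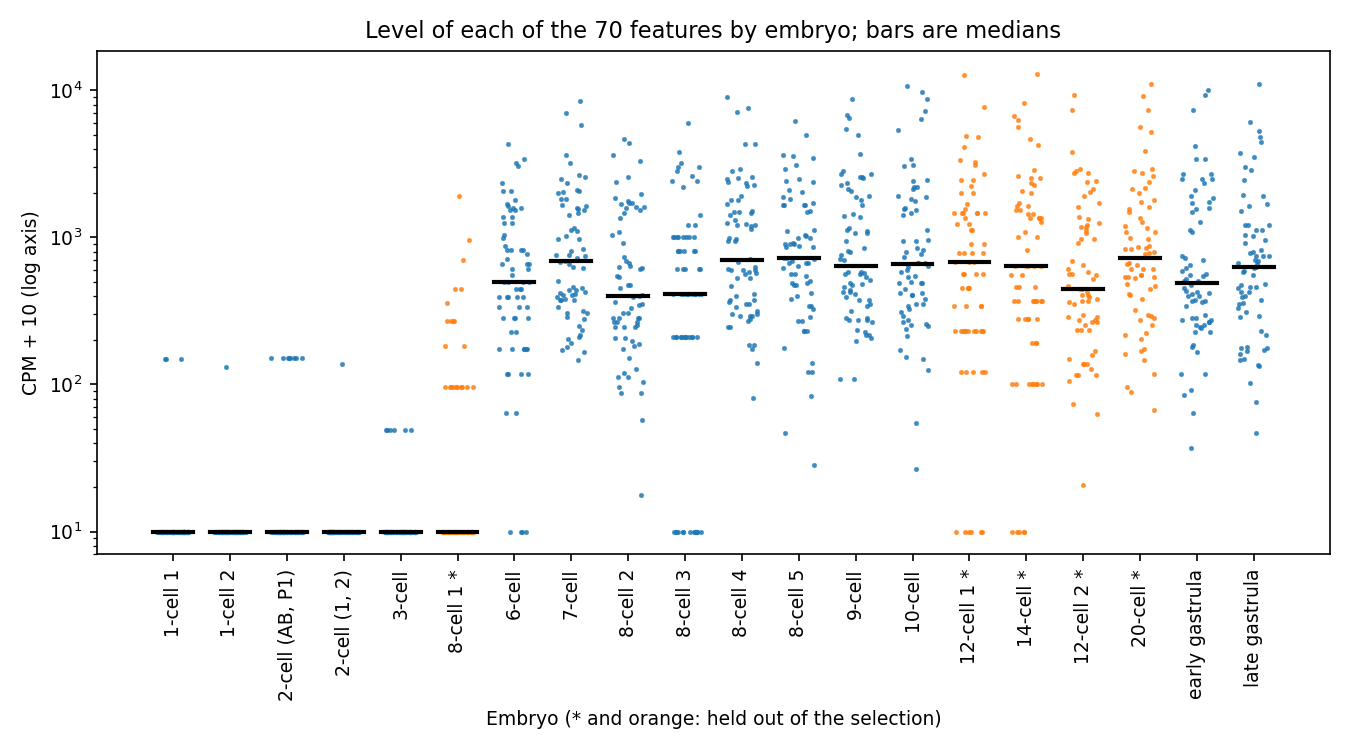
CPM plus 10 (log axis) of each of the 70 features in each of the 20 embryos, with orange points for the 5 embryos the selection did not use and black bars for medians. The median is 0 CPM in the 1-3 cell embryos and in 8-cell embryo 1 and lies between 437 and 711 CPM in the other 4 orange embryos.

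The 8 most abundant features in those 4 embryos were row_59, row_424, row_155, row_1035, row_1394, row_1330, row_566 and row_372. Feature row_59 was at 12805 CPM in 12-cell embryo 1, 12985 in the 14-cell embryo, 9306 in 12-cell embryo 2 and 11073 at the 20-cell stage, a mean of 11542 ± 1722 (SD, n = 4). In the 8 higher-series embryos of 6 to 10 cells it ran from 3636 to 10721 with a median of 6258 CPM, so 3 of the 4 later embryos were above all 8. Feature row_424 was the steadiest of the 8 relative to its level, at 7683, 8206, 7379 and 7346 CPM in the same order (7653 ± 398, SD, n = 4), against 3205 to 7543 with a median of 5882 CPM earlier.

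Feature row_155 was at 4788, 6312, 3791 and 9077 CPM, within its earlier range of 1522 to 9764 CPM. Feature row_1035 was at 4899, 5591, 2364 and 5630 CPM, within 1344 to 6398. Feature row_566 was at 3229, 4238, 2736 and 2808 CPM, against 1002 to 3393 with a median of 2185 CPM. Feature row_372 was at 2672, 2615, 2406 and 2140 CPM, against 1462 to 2404 with a median of 2029 CPM in the earlier embryos. Both 12-cell embryo 1 and the 14-cell embryo stood above all 8 earlier embryos. The level in 12-cell embryo 2 equalled that of the highest earlier one, 8-cell embryo 3, which rests on 12 counts. Feature row_1394 varied most of the 8 relative to its mean, with a mean of 4066 ± 2421 CPM (SD, n = 4). Feature row_1394 was at 3340, 6673, 1065 and 5185 CPM and row_1330 at 4120, 4689, 1917 and 3856 CPM, both lowest in 12-cell embryo 2.

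The 3 lowest features over these embryos were row_550, row_1511 and row_445. Feature row_550 was at 0, 90.2, 53.2 and 136.4 CPM, all below its earlier median of 229 CPM. Feature row_1511 had no count in 12-cell embryo 1 or the 14-cell embryo and was at 106.5 and 215 CPM in the other pair. Feature row_445 was at 223, 0, 117.1 and 79 CPM, after 70.5 to 1532 CPM in the earlier embryos, where it was highest in 8-cell embryos 2 and 3. The lower-series values of these 3 rest on 0, 1 or 2 counts, since 1 count equals 111.3 CPM for 12-cell embryo 1 and 90.2 CPM for the 14-cell embryo.

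The 8-cell stage is present in both series. In 8-cell embryo 1, of the lower series, 10 of the 70 features reached 200 CPM, against 53.6% of the 431 features with that level in the 6-10 cell sum. It had no count of 48 features, where a count of 0 allows up to 260 CPM. The 70 features together made up 0.702% of its counts, against 5.83% to 9.54% in the other 4 embryos of 8 cells and 0.0121% to 0.112% in the 1-3 cell embryos. Both ranges come from embryos that the selection used, so the gaps to them follow in part from the selection and are a description only. Its median ratio to the 6-10 cell level was 0 over the 70 features and 0.209 over the 431, so this embryo was low for both sets. In 8-cell embryos 2 to 5, which are part of that level, the median ratio was 0.562 to 1.07 over the 70 and 0.844 to 0.977 over the 431. The label gives the same stage for all 5 embryos, so stage within the 8-cell period, number series and embryo cannot be told apart.

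The 22 features with a count in 8-cell embryo 1 were unequally represented. Of their 81 counts, 27.2% were of row_1455. It had 22 counts or 1907 CPM, within the range of 8-cell embryos 2 to 5 (3650, 3005, 1469 and 1642 CPM). Feature row_1455 was found in each of the 4 libraries of this embryo with at least 1000 counts, at 9.5 to 32.8 counts per 10000, and it was the only one of the 70 found in all of them. Feature row_1552 followed with 953 CPM, row_424 with 693, row_1115 and row_150 with 433 each and row_1474 with 347. The other 16 had 1 to 3 counts.

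Comparing the lower-series embryos with each other asks whether the features rise between 8 and 14 cells without a change of series. edgeR's quasi-likelihood test, with Benjamini-Hochberg adjustment over all 604 features tested, called 28 of the 70 features higher in 12-cell embryo 1 and the 14-cell embryo than in 8-cell embryo 1 and 0 lower, where 20.2% of all features tested were called higher and 8.44% lower. The fitted change was positive in 68 of the 70, with a median of 6.76 on the log2 scale against 1.46 over all features (1.92 with RLE size factors), but most of these values are set by a count of 0 and are not sizes. All 70 passed the filter on low counts, which read all 20 embryos, and each of the 70 exceeded its level minimum in an embryo outside this comparison. In a fit of the lower series alone 30 passed, 29 of them through 12-cell embryo 1 or the 14-cell embryo, so nothing is read from the calls among those 30. The 6 abundant rows filled 71.8% of the median library of 8-cell embryo 1, 74% for 12-cell embryo 1 and 86.3% for the 14-cell embryo, and their part in the result was not tested. With them kept in the table, the median fitted log2 change was 6.89 over the 70 and 1.12 over all features. A single embryo stands on the 8-cell side, so its spread was taken from the fit of all 20 embryos, which include those the selection used. The 48 features without a count in 8-cell embryo 1 could not come out lower in the later pair. The absence of lower calls among the 70 is therefore not read as a result. Without 12-cell embryo 1, and without the 14-cell embryo, fewer of the 70 and a smaller share of all features were called higher.

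Of the 28, 21 had no count in 8-cell embryo 1, and for these a fold is given only as a lower bound against 3 counts in that embryo. The bounds ran from 1.53-fold to 21.7-fold with a median of 5.56. Feature row_155 had 43 and 70 counts in the later pair and was at least 21.7-fold higher (edgeR adjusted p = 0.00335). Feature row_1330, with 37 and 52 counts, was at least 17.1-fold higher (edgeR adjusted p = 0.0191). Feature row_372, with 24 and 29 counts, was at least 10.2-fold higher (edgeR adjusted p = 0.00283).

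The other 7 had at least 1 count in 8-cell embryo 1, and their folds are given with counting intervals (exact, 95%). These intervals cover counting error only and leave out the spread between embryos and between blastomeres. Feature row_59 had 3 counts there and 259 in the later pair, a ratio of 49.6 (16.8 to 242), with a fitted log2 change of 5.88 ± 1.12 (SE, edgeR adjusted p = 0.00200). Feature row_424 had 8 counts and then 160, a ratio of 11.5 (5.70 to 27.1), with a fitted log2 change of 3.78 ± 0.97 (SE, edgeR adjusted p = 0.00748). Feature row_1035 had 1 count and then 44 and 62, a ratio of 60.9 (10.7 to 2429). Feature row_566 had 3 counts and then 76, a ratio of 14.6 (4.80 to 72.2), and row_460 had 2 and then 56, a ratio of 16.1 (4.25 to 136.2). Feature row_1394, with 2 counts and then 30 and 74, had a ratio of 29.9 (8.07 to 250) and an edgeR adjusted p of 0.0431, which lay above 0.05 without 12-cell embryo 1, without the 14-cell embryo or with only libraries of at least 1000 counts. Feature row_647, with 1 count and then 38, had a ratio of 21.8 (3.69 to 885) and an edgeR adjusted p of 0.0372, which lay above 0.05 in each of the same refits and with DESeq2 (adjusted p = 0.0510). Feature row_460 (edgeR adjusted p = 0.0156) also lost its call without 12-cell embryo 1 and with only the deeper libraries. Feature row_1455 did not share the rise: it had 22 counts in 8-cell embryo 1 and 19 in the later pair, a ratio of 0.497 (0.254 to 0.961), with a fitted log2 change of -0.75 ± 1.05 that did not pass the test (SE, edgeR adjusted p = 0.585).

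At 12 to 20 cells both series could be compared directly, with 12-cell embryo 2 and the 20-cell embryo against 12-cell embryo 1 and the 14-cell embryo. None of the 70 features was called in either direction by edgeR's quasi-likelihood test, where 0% of the 604 features tested were called higher and 0.166% (1 feature, not in the set) lower in the higher series. At an unadjusted p under 0.05 were 56 features, among them 4 of the 70. DESeq2, fitted to 1369 features without the low count filter, called 22 higher (1.61%), 2 of them of the 70. The median fitted difference of the 70 was 0.31 on the log2 scale (higher minus lower series) against 0.62 over all features tested, and with RLE size factors it was -0.17 against 0.15, so the sign of the median depended on the scaling. With 2 embryos a side and stage differing with series, an absent call does not show that levels were equal.

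The 4 features with unadjusted p under 0.05 were all higher in the higher series. Feature row_1242 was at 334 and 361 CPM in 12-cell embryo 1 and the 14-cell embryo and at 596 and 2169 CPM in 12-cell embryo 2 and the 20-cell embryo. Feature row_1462 was at 445 and 90.2 CPM and at 905 and 1185 CPM in the same order. Features row_1242 and row_1462 are the pair that DESeq2 called (adjusted p = 0.0360 and 0.0339), while edgeR gave both, and row_928 and row_1179, an adjusted p of 0.425. Between the 12-cell embryos alone, which share the stage label, row_928 was at 111.3 CPM in embryo 1 (1 count) and 224 CPM in embryo 2, and row_1179 at 223 CPM (2 counts) and 351 CPM.

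The 8 higher-series embryos of 6 to 10 cells are those whose sum chose the features. The sum weights embryos by depth, and the 10-cell embryo gave 180672 counts, the 6-cell embryo 18396 and 8-cell embryo 3 only 4992, so features high at 10 cells were more likely to be selected. Levels across these embryos are therefore a description, and nothing is read from their direction with cell number. Of the 70 features, 54 had a count in all 8 embryos. By edgeR's quasi-likelihood test of a slope on log2 of the cell number, no feature passed an adjusted p of 0.05 among the 588 tested, 0% rising and 0% falling, and 80 had an unadjusted p under 0.05. DESeq2, fitted to 1221 features without the low count filter, called 4 rising and 7 falling.

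**Figure D3:**
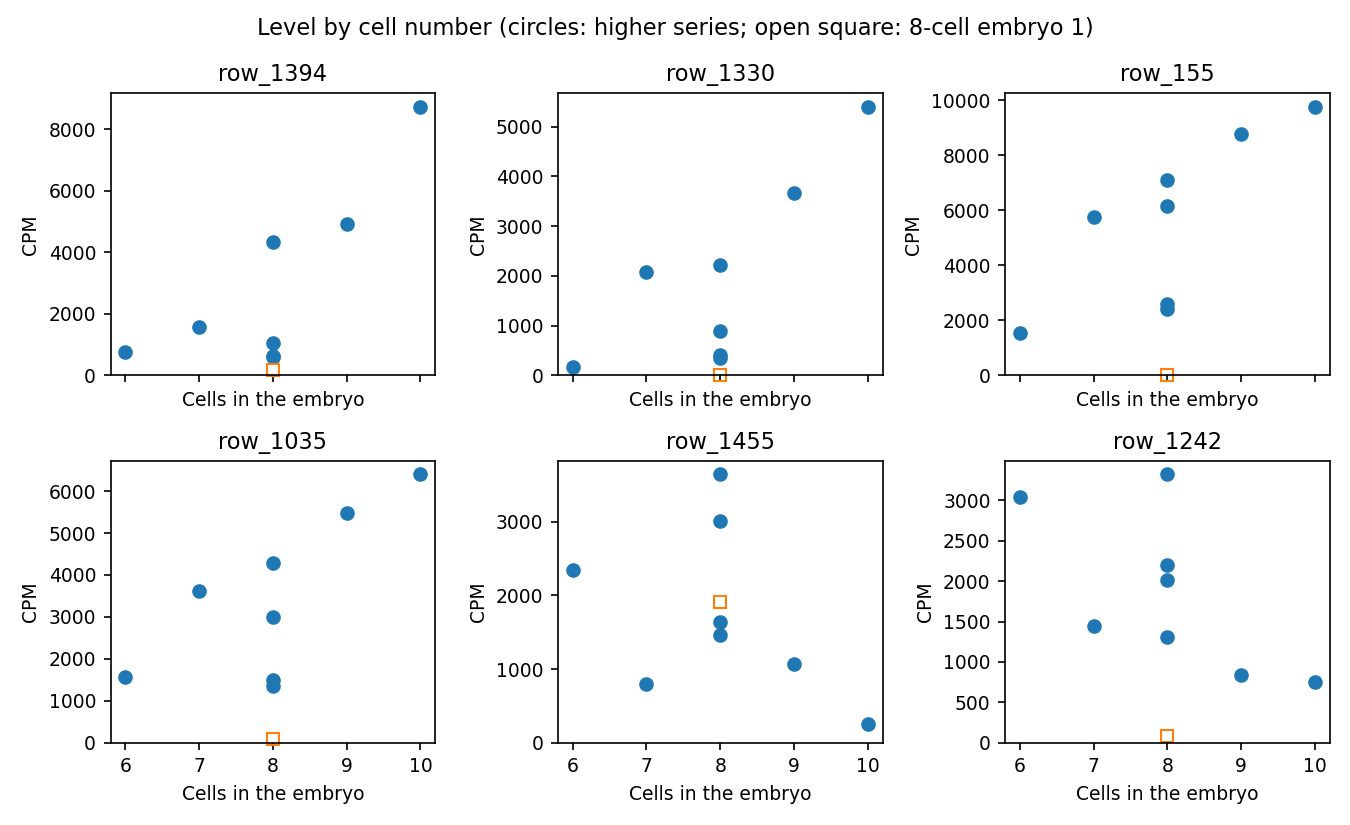
CPM of 6 features (row_1394, row_1330, row_155, row_1035, row_1455 and row_1242) against the number of cells of the embryo, with filled circles for the 8 higher-series embryos of 6 to 10 cells and an open square for 8-cell embryo 1. The upper 3 and row_1035 are highest at 9 or 10 cells, row_1455 and row_1242 are highest at 8 cells, and the open square lies near 0 except for row_1455.

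Features row_1394, row_1330 and row_155 were highest in the oldest of these embryos. Feature row_1394 was at 761 CPM in the 6-cell embryo, 1560 in the 7-cell embryo, 610, 601, 4324 and 1033 in 8-cell embryos 2 to 5, 4926 at 9 cells and 8734 at 10 cells. Both later embryos stood above all 6 younger ones, and 8-cell embryo 4 stood well above its stage.

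Feature row_1330 was at 163.1, 2080, 344, 401, 2221, 886, 3660 and 5397 CPM in the same order of embryos, again highest at 9 and 10 cells. Feature row_155 was at 1522, 5763, 2579, 2404, 7120, 6145, 8772 and 9764 CPM. Features row_1394, row_1330 and row_155 all had the 10-cell embryo highest, the 9-cell embryo next and 8-cell embryo 4 after it.

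Some features were lowest in the oldest of these embryos. Feature row_1242 was at 3044, 1447, 3322, 2204, 1304, 2012, 834 and 758 CPM, lowest in the 9- and 10-cell embryos. Feature row_1455 was at 2337, 802, 3650, 3005, 1469, 1642, 1070 and 249 CPM, and its lowest value was in the 10-cell embryo. Feature row_369 was at 652 CPM in the 6-cell embryo and 98.1 and 44.3 CPM in the 9- and 10-cell embryos. Feature row_219, by contrast, stayed between 1759 and 3806 CPM in all 8.

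Single blastomeres were compared within an embryo, as counts per 10000 counts of the library outside the 6 rows and only in libraries with at least 1000 such counts. Blastomeres of 1 embryo are not replicates, so these are descriptions without a test. A count in every such library was found for 1 of the 70 features in 8-cell embryo 1 (4 libraries), 15 in 12-cell embryo 1 (4), 22 in the 14-cell embryo (5), 21 in 12-cell embryo 2 (9) and 37 at the 20-cell stage (13). With all libraries of at least 500 counts it was 0 in 8-cell embryo 1, 6 in 12-cell embryo 1 and 14 at the 20-cell stage. Without library 3r17 the count at the 20-cell stage was again 37. Of the 431 features, 28.5%, 32.5%, 34.6%, 54.8% and 63.1% were found in every library of those embryos. At an equal depth of 1000 counts per library, the mean share of the 70 features detected in a library was 7.80%, 49.5%, 50.9%, 40.1% and 52%, and that of the 431 features was 37.9%, 58.2%, 54.5%, 54.3% and 59.1%.

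The spread between blastomeres was measured as a dispersion, the Pearson chi-square of a feature's counts against the library totals divided by its degrees of freedom, which is near 1 when libraries differ only by counting. Over features with a mean of at least 5 counts per library, the median was 3.59 for 33 of the 70 in 12-cell embryo 2 and 3.76 for 48 of the 70 in the 20-cell embryo, beside 4.02 and 3.37 over all features. Features were ordered by the median dispersion over those of the 5 unused embryos in which they reached that mean. By that order row_1441 (0.665, 20-cell embryo alone) and row_1007 (1.21, 12-cell embryo 2 alone) were the most even, each ranked on 1 embryo. At the same relative unevenness this dispersion rises with a feature's counts, and row_1441 and row_1007 had only 76 and 52 counts in those embryos. The most uneven by the same order were row_928 (43.2, 20-cell embryo alone), row_300 (11.2, 2 embryos), row_1115 (11.0, 3 embryos) and row_1567 (9.13, 2 embryos). In the 20-cell embryo by itself row_1394, at 28.7, and row_1330, at 20.7, followed row_928. Without library 3r17 those 3 values were 18.5, 10.1 and 37.1, in the order row_1394, row_1330 and row_928. Feature row_928 was also at 31.5 in the 10-cell embryo and 16.6 in the 9-cell embryo.

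Feature row_928 was concentrated in 1 or 2 blastomeres of the 9-, 10- and 20-cell embryos. In the 20-cell embryo the libraries titled r16 and r15 held 81.5 and 70.1 counts per 10000, and the next highest held 10.4. The 95% Wilson interval of the highest, which covers counting error only, was 59.7 to 111.2. These libraries held 65.1% of the feature's counts and 11.3% of all counts. In the 10-cell embryo r9 and r7 were at 57.1 and 41.4 against 13.8 for the next, and in the 9-cell embryo r2 was at 40.5 against 11.9. In 12-cell embryo 2 no library reached such a level. The highest there, r2 and r1, were at 5.3 and 4.0 against 1.8 for the next. They held most of the feature's 21 counts and 37.8% of all counts, so its few counts were concentrated there too. The deep libraries of 12-cell embryo 1 and the 14-cell embryo had no count of row_928. Numbers of the r libraries carry no cell identity in the labels.

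The other features were then looked at in the same libraries, a choice made after these values were seen. Feature row_1330 was highest in the same blastomeres of the 9-, 10- and 20-cell embryos. It was at 91.9 and 91.5 counts per 10000 in r16 and r15 of the 20-cell embryo, 124.2 and 113.5 in r9 and r7 of the 10-cell embryo and 90.4 in r2 of the 9-cell embryo. Unlike row_928 it was present elsewhere, with medians over libraries of 49.9, 47.6 and 25.8 in the 3 embryos. Feature row_1394 was low in the same pairs, with 29.3 and 23.4 in the 20-cell embryo, where its median was 52.4, and 36.0 and 57.6 in the 10-cell embryo, where its median was 85.7. In r2 of the 9-cell embryo it was at 41.1, near its median of 45.1. Feature row_1394 was highest in r14 of the 20-cell embryo with 167.6 (142.5 to 197.1, 95% Wilson interval), and that library was the lowest for row_1330, with 4.7. The match of row_1330 with row_928 did not hold in 2 other embryos. In 12-cell embryo 2 row_1330 was highest in r3 with 33.1, beside 32.7 in r1 and 16.6, its median, in r2. In the 7-cell embryo row_928 was highest in r4 and r5, but row_1330 in r2 with 29.0, beside 25.3 in r5 and 20.8 in r4.

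**Figure D4:**
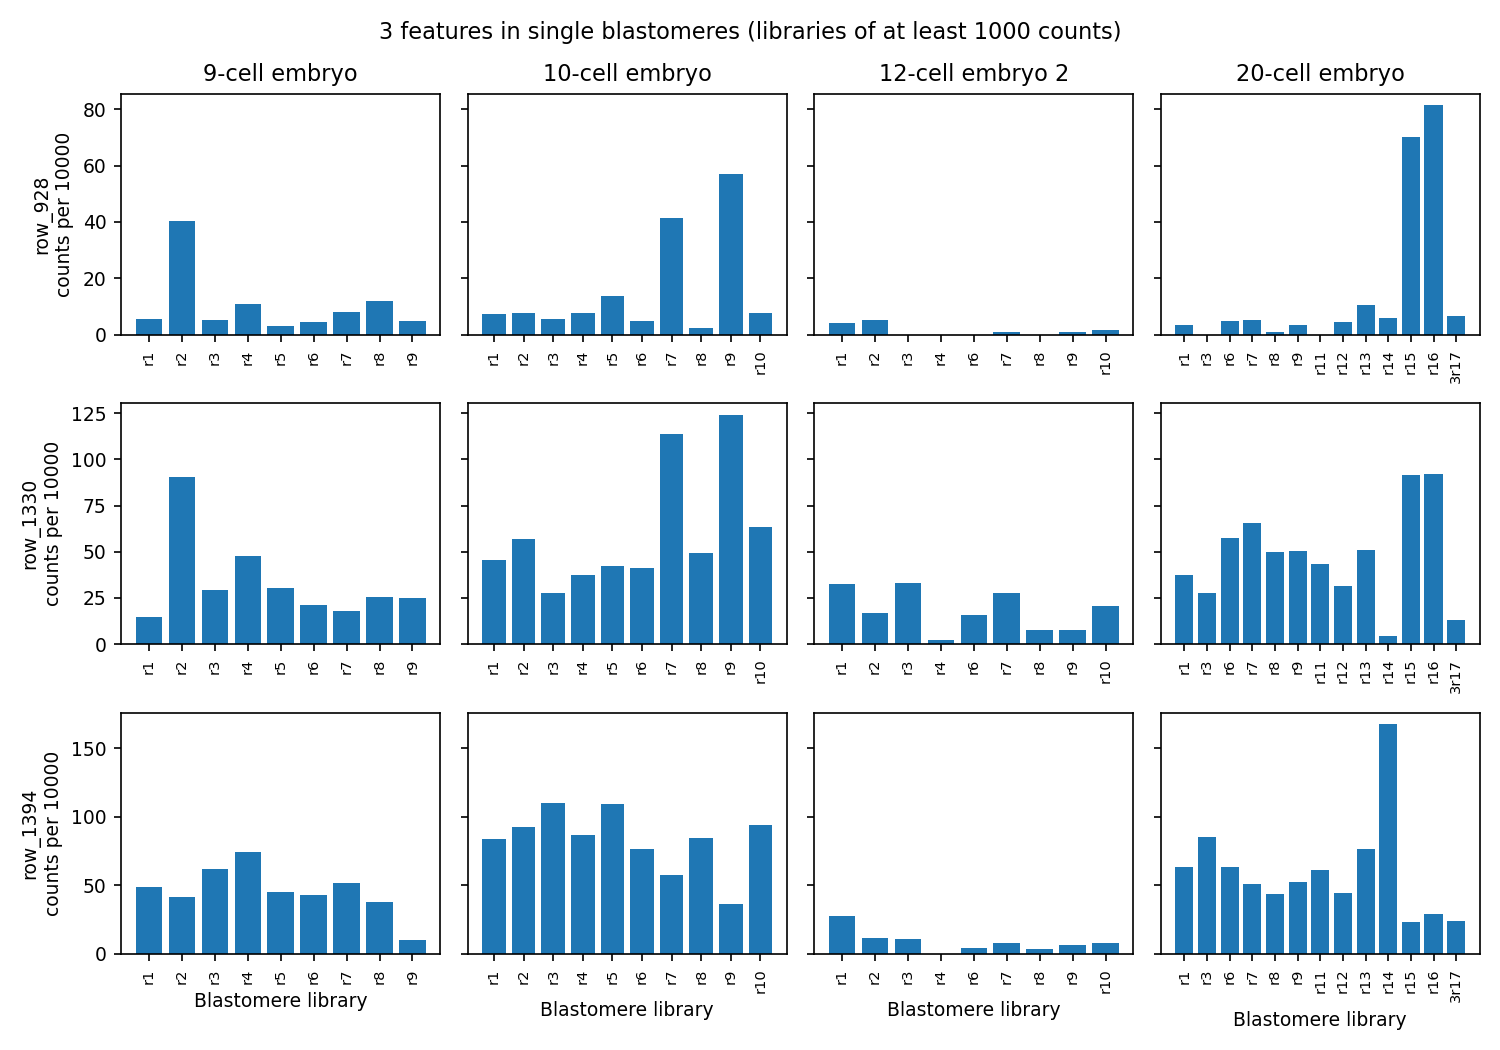
Counts per 10000 counts of the library for row_928, row_1330 and row_1394 (top to bottom) in each blastomere library of at least 1000 counts of the 9-cell, 10-cell, 12-cell (embryo 2) and 20-cell embryos; bars are single libraries and panels of a row share the y axis. Features row_928 and row_1330 peak in r2 of the 9-cell embryo, r9 and r7 of the 10-cell embryo and r16 and r15 of the 20-cell embryo, and row_1394 is low in the 10- and 20-cell pairs.

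Features row_300 and row_1567 were uneven too, partly in libraries where row_928 was highest. In r2 of the 9-cell embryo both had their highest level there, at 18.2 and 5.4 counts per 10000 against 7.5 and 2.8 for the next. The level of row_1567 there rests on 8 counts. In the 10-cell embryo both were highest in r7, at 10.8 and 9.9 against 9.9 and 3.8. For row_300 that was near a tie, with 12 counts in r7 and 8 in r9. In 12-cell embryo 2 both peaked in r2, the deepest library, row_300 at 48.6 counts per 10000 against 26.3 for the next, and row_1567 at 19.7 against 4.0. The libraries r2 and r1 held 92.6% of the counts of row_1567 and 72% of those of row_300, and 37.8% of all counts. In the 7-cell embryo both features were highest in r4 and r5, with row_300 at 21.8 and 19.7 against 8.0 for the next and row_1567 at 9.6 and 5.6 against 2.1. Feature row_928 was highest in the same r4 and r5, at 8.6 and 8.4 against 2.5. The levels in r5 rest on few counts, 4 of row_1567 and 6 of row_928. In the 20-cell embryo row_300 and row_1567 parted. There row_300 was highest in r8 with 32.6, and row_1567 in r15 and r16 with 19.6 and 10.4 against 8.9.

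Feature row_1115 was uneven with a broader pattern. In the 20-cell embryo it ran from 0 to 71.7 counts per 10000 with a median of 19.5, in the 10-cell embryo from 5.0 to 43.8 with a median of 29.7, and in 12-cell embryo 2 from 0 to 25.5 with a median of 2.7. The abundant row_59 and row_424 were present in every such library of the 20-cell embryo. Feature row_59 ran from 85.6 to 161.9 in the 20-cell embryo, and the lowest level of row_424 there was 43.4. In 12-cell embryo 2 the lowest library held 7.1 of row_59 and 0 of row_424, beside medians of 101.3 and 82.3. The library titled DP4 of 12-cell embryo 1, with 1176 counts, held 11 counts of row_59, 6 of row_1330 and 0 of row_1394 and row_928. The library titled P4 of the 14-cell embryo had 27 counts in all, too few for a level.

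In the gastrula, where the selection used the sum of 1 early and 1 late embryo, the features made up 8.65% of the counts of the early embryo and 8.42% of the late embryo. Late divided by early level had a median of 1.17 over the 70, beside 1.07 over the 431 features, and 40 of the 70 were higher in the late embryo, as were 52.7% of the 431. More than 3-fold higher in the late embryo were 6 of the 70, against 8.58% of the 431 features, and more than 3-fold lower were 7, against 6.96%. With 1 embryo a side there is no test.

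The highest late to early ratios were of row_847 (54.3 to 381 CPM, 7.02-fold), row_928 (81.4 to 389 CPM, 4.78-fold) and row_369 (27.1 to 126.1 CPM, 4.65-fold). The lowest were of row_460 (1709 to 281 CPM, a ratio of 0.164), row_53 (387 to 65.7 CPM, 0.170) and row_984 (732 to 136.6 CPM, 0.187). Features row_460 and row_984 also lie at the lower gastrula limit of the selection. Across the 40 late gastrula libraries row_928 was at a median of 1.9 counts per 10000 with highest values of 24.3 and 19.7. Feature row_13, at 244 CPM in the early and 1030 CPM in the late embryo, had 44.1% of its late gastrula counts in 2 libraries that held 5.1% of all counts, at 88.6 and 88.5 per 10000 against 15.6 for the next.

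**Figure D5:**
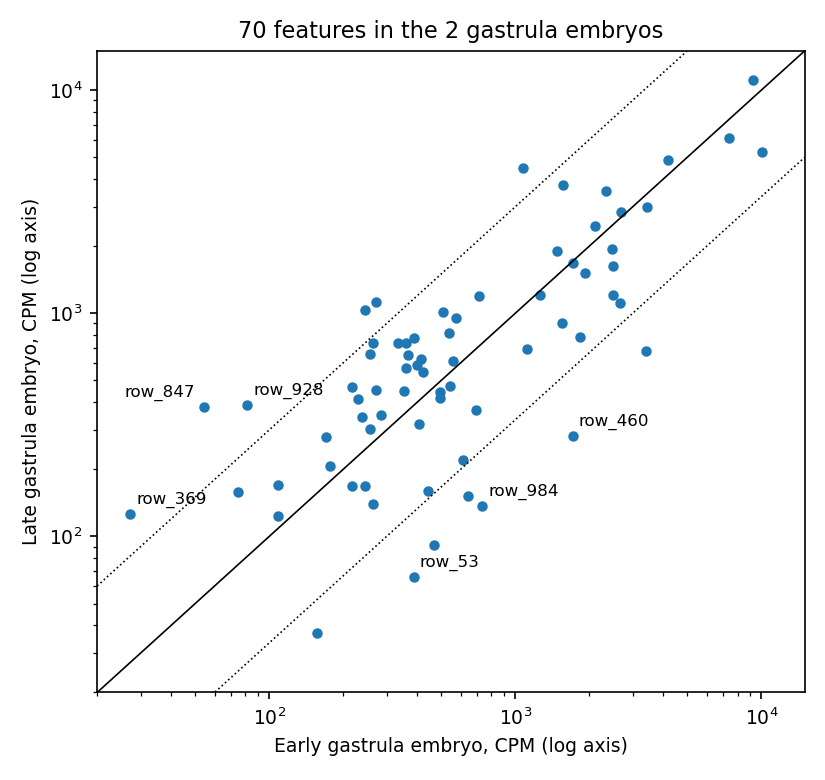
CPM of each of the 70 features in the early gastrula embryo (x, log axis) and in the late gastrula embryo (y, log axis), with lines for equal level and for 3-fold differences. Most points lie between the 3-fold lines, 6 lie above and 7 below.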

How the data were processed

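The deposited values are raw counts of the authors, whole and not normalized. Per the submitters' processing notes the tools included HTSeq 0.5.4p3, Bowtie2 2.1.0 and CASAVA 1.8, with no role stated. Genome build and use of molecular identifiers are not given in the sources used here. The table used here holds 1572 complete rows and 1 incomplete row of 130 fields, which was dropped, so totals are of these rows and not library depths. The 6 rows that took most of the counts of the lower series (789, 955, 956, 1147, 1149 and 1177) were left out of totals and tests. Every column was assigned by sample number.

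Counts were summed per embryo and given as CPM. Tests used edgeR 4.0.16 (quasi-likelihood, TMM, filterByExpr, Benjamini-Hochberg over all features tested, threshold 0.05) in R 4.3.3, after tests on simulated data. DESeq2 1.42.0, RLE size factors, no filter, the 6 rows kept, libraries of at least 1000 counts, smaller fits, leaving out each embryo and leaving out library 3r17 were alternatives. Intervals and count limits cover counting error only.

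The members, lists and rules for naming features were chosen with earlier results of these data known. Named were the 8 features with the highest and the 3 with the lowest level at 12 to 20 cells outside the selection, the 3 largest changes among called features of each test, the 4 most uneven and 2 most even between blastomeres, the 3 on each side of each limit, and the 3 at each end of the gastrula ratio. Others were named after their values were seen.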

Additional observations from a re-analysis of the deposited data

Results flagged for a closer look

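Levels of 25 features and the joint level of the set were screened for an embryo standing apart from its stage or phase, 78 sets of values in all, and 3 had such an embryo, where chance alone marks about 5% of sets. Feature row_1394 was at 4324 CPM in 8-cell embryo 4, while the other embryos of 8 cells ran from 173.3 to 1033 CPM. Feature row_1511 was at 1002 CPM in 8-cell embryo 3, above the 86.7 to 235 CPM of its stage and above the 16.6 to 381 CPM of the other higher-series embryos of 6 to 10 cells. The value of row_1511 rests on 5 counts, since 1 count in that embryo is 200 CPM.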

How the results depend on the processing

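For the rise from 8-cell embryo 1 to 12 and 14 cells, the count of features called higher was 18 to 19 when an embryo of the later pair was left out and 20 to 31 under the other alternatives. Of 96 refits of 12 named features, 86 kept the direction and the side of the threshold, 9 lost the call, 1 gained it and 0 reversed. Calls among the 70 are not given for the slope with cell number, since the sum of its embryos chose the features. For the series comparison at 12 to 20 cells DESeq2 called 2 of the 70 higher, and 1.61% of all features in its fit. The causes of these changes between settings were not tested. Over all features, DESeq2 called 22 higher and 1 lower in the series comparison and 4 rising and 7 falling slopes, where edgeR called 0 and 1, and 0 and 0. The feature sets differ, since DESeq2 ran without the low count filter on 1369 and 1221 features, and edgeR on 604 and 588. With no filter on low counts edgeR called 2 higher in the former and 1 rising in the latter, and without the 6-cell embryo 1 rising. Without 8-cell embryo 2 edgeR called 2 rising and 13 falling, and with the 6 rows kept it called 7 features lower in the series comparison. In the first comparison the share of all features called higher was 20.2%, and it was 10.3% without 12-cell embryo 1 (68 features), 11.7% without the 14-cell embryo (79) and 33.2% with lower-series embryos only. The count called lower was 51, and it was 15 without the 14-cell embryo and 94 with lower-series embryos only. With the 6 rows kept in the totals, 3, 29 and 30 features reached 200 CPM in 8-cell embryo 1, 12-cell embryo 1 and the 14-cell embryo, and the median ratio to the 6-10 cell level was 0.579. With libraries of at least 500 counts, 0, 6 and 14 features were found in every library of 8-cell embryo 1, 12-cell embryo 1 and the 20-cell embryo. A minimum of 2000 counts left too few libraries for a value in the lower series, and the first comparison cannot be made without 8-cell embryo 1. Leaving out the 20-cell library 3r17, an alternative chosen after seeing the data, gave a median ratio of 0.988 and 0 features of the 70 called in the series comparison. No paired analysis was possible because the groups compared share fewer than 2 embryo numbers from the labels. Depth limits the lower series most, where 1 count is 86.7 to 111.3 CPM in the embryos of 8 to 14 cells.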
